A study of Mus musculus with 30 samples.

Results

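Adult levels of 7 transcription factor genes that pattern the eye and the forebrain of the embryo, Pax6, Rax, Six3, Lhx2, Vax1, Vax2 and Sox2, were examined in whole eye and hypothalamus of wild-type (WT) and Per3-/- mice. The members were taken by name: every probe that the array files give for these gene symbols was used, which gave 10 of the 41174 probes that are not controls. Pax6, Rax and Six3 have 2 probes each and the other genes have 1. All mice were adult males on a C57Bl/6J background, WT or littermates homozygous for a Per3 allele in which a PGK-NEO cassette replaced part of the gene, and all were first kept in a daily light/dark cycle, then moved to ultradian cycles of 3.5 h light and 3.5 h dark and killed in the light of cycle 17. The whole eye, and a block of hypothalamus cut around the optic chiasm and holding the suprachiasmatic nucleus (SCN), were each hybridised to 1 single-colour Agilent array per mouse, which gave 7 WT and 7 Per3-/- eyes and 8 WT and 8 Per3-/- hypothalami.

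The neural retina and the hypothalamus arise from neighbouring parts of the anterior neural plate. The members act there as a network: Rax, Six3, Lhx2 and Pax6 are eye-field factors that set up the optic vesicle, Vax1 and Vax2 are ventral factors that separate optic stalk from retina, and Sox2 keeps neural progenitors undifferentiated. Several are kept in adult cells, among them Pax6 in amacrine and ganglion cells, Rax in photoreceptors and in hypothalamic tanycytes, and Sox2 in glia.

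Values are log2 of the processed spot intensity minus log2 of the 75th percentile of the same array, so that 0 is the level of a fairly bright probe and each unit is a doubling. They compare arrays for 1 probe and do not rank different probes. A probe counted as above background on an array where the scanner software marked it so. In bulk tissue, fewer cells that express a gene and less RNA per cell cannot be told apart. Each slide held 1 tissue and both genotypes, so that tissue and slide cannot be told apart, whereas the genotypes could be compared within slides.

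The arrays had 67.9% to 80.7% of probes above background. The mean level of lens marker genes was 6.77 to 7.47 in the eyes and -5.17 to -4.33 in the hypothalami. That of hypothalamic neurons was -3.52 to -2.76 and 2.84 to 3.72, so that the tissues carried these markers of their labels. Not every marker list followed the labels. In WT mice 5 of 7 tanycyte markers, Rax among them, were higher in the eye and 1 lower (limma, adjusted p under 0.05). Of the amacrine and of the ganglion cell markers, 2 were higher in the eye and 2 lower. The mean of 2 thalamus markers was 3.58 to 4.08 in the hypothalami and -0.51 to -0.09 in the eyes. Choroid plexus markers ran from -3.53 to 0.81 over the hypothalami. Whether the blocks held parts of such tissues was not tested. The Per3 probe (A_51_P258493) had a median of -3.45 in WT and -3.99 in Per3-/- hypothalami, a difference of -0.51 ± 0.09 (SE) with an adjusted p of 0.0657, and one of -0.45 ± 0.23 with an adjusted p of 1.0 in the eyes (limma). The position of that probe relative to the replaced part was not determined here. The authors state that this allele still gives a Per3 mRNA, longer than normal and reduced in the SCN and in skeletal muscle, while PER3 protein is undetectable. In the hypothalamus, Per3-/- mouse 1 had a mean anterior pituitary marker level of 6.82 and WT mouse 5 one of 1.75, against -4.30 to -2.43 in the other 14, and Per3-/- mouse 7 is described beside Pax6.

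The 60-base probes of 3 genes are shown, with all letters in lower case since no part is set apart. The pair of Pax6 probes reads different stretches of the gene, the Six3 probe gave a difference that depended on scaling, and the Vax1 probe was one of the 2 that were higher in the hypothalamus.
Pax6, A_52_P565559: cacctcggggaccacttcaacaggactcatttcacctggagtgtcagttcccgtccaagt
Pax6, A_52_P469306: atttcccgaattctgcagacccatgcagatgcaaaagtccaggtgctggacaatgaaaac
Six3, A_52_P675229: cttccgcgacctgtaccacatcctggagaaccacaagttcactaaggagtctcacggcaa
Vax1, A_51_P499371: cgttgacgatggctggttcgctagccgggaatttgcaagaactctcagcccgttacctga
On mouse assembly mm9, as given by the files, the Pax6 probes lie on the plus strand at chr2:105535591-105536463 and chr2:105524098-105524949. Each of these spans is longer than the probe (873 and 852 bases for 60), as for a probe that reads across a splice junction. The Six3 probe lies at chr17:86021014-86021073 on the plus strand and the Vax1 probe at chr19:59240748-59240807 on the minus strand, each in 1 unbroken run. Their GC content was 55.0%, 46.7%, 53.3% and 55.0%, against a median of 40.0% over all probes. The remaining single probes lie at chr2:38224933-38224992 (Lhx2), chr6:83688124-83688183 (Vax2) and chr3:34550773-34550832 (Sox2), and the dimmer Six3 probe (A_51_P187561) at chr17:86021546-86021605. Exon and UTR annotation of this assembly was not used here.

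The first comparison asked where the members were expressed in the adult. In both genotypes, Pax6, Rax and Vax2 were far higher in the eye than in the hypothalamus, and Vax1 and Sox2 were higher in the hypothalamus. Six3 and Lhx2 were slightly higher in the eye with arrays scaled to their 75th percentile, but neither call held under every scaling, as given below. With the 75th percentile, all 10 probes passed the test in the same direction in both genotypes, 8 higher in the eye and 2 lower (limma, adjusted p under 0.05). This stood against 41.7% of all probes higher in the eye and 33.4% higher in the hypothalamus in WT mice, and 44.0% and 33.3% in Per3-/- mice, so that a call in itself was common. The median difference over the 10 member probes was 2.08 in WT and 2.06 in Per3-/- mice, against 0.15 and 0.23 over all probes. With probes that were not above background in 1 tissue set at their bound, the member medians were 0.58 and 1.06. The dimmer Six3 probe entered at its bound of 0.63 in WT. In Per3-/- mice it entered at its measured 1.66, as some hypothalami were above background. These medians are therefore not to be compared between genotypes. The groups did not overlap for 8 of the 10 probes in each genotype, against 56.2% and 55.1% of all probes.

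**Figure D1:**
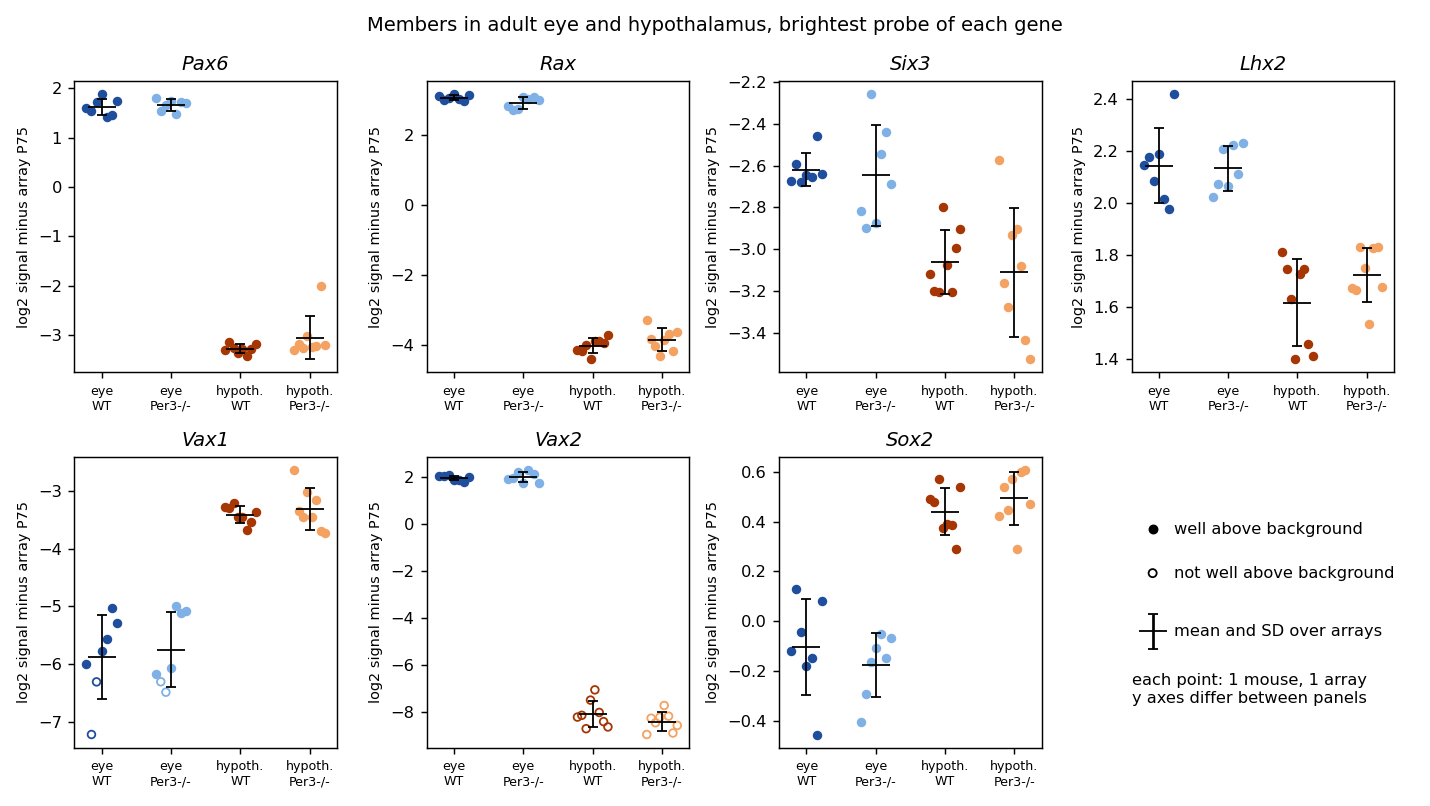
Level of each member's brighter or only probe on every array (y axis, log2 signal minus the array's 75th percentile, P75, with a scale of its own in each panel), by tissue and genotype, where each point is 1 mouse, open points were not above background and bars give the group mean and SD. Pax6, Rax and Vax2 separate widely by tissue, Vax1 and Sox2 lie higher in the hypothalamus, and the genotypes overlap throughout.

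Among the eye-field factors, Rax, a homeobox gene needed for eye formation, was 2.96, 3.06 and 3.17 in WT eyes (lowest, median and highest of 7) and -4.41, -3.99 and -3.73 in the 8 WT hypothalami. In Per3-/- mice it was 2.70, 3.01 and 3.08 in the eyes and -4.34, -3.85 and -3.30 in the hypothalami. Every eye was above every hypothalamus, and the brighter probe (A_51_P106900) was above background on all arrays. The eye was 138-fold higher in WT (7.10 ± 0.11 log2, adjusted p = 5.34e-29) and 110-fold higher in Per3-/- mice (6.78 ± 0.11, adjusted p = 1.63e-28). Only 277 of the 41174 probes had a greater difference towards the eye in WT mice. The probes lie on the minus strand of mm9, the brighter at chr18:66094335-66094394 and the dimmer at chr18:66088294-66088353. The dimmer Rax probe (A_52_P3153) was above background in 5 of 7 WT and 3 of 7 Per3-/- eyes and in no hypothalamus, so that only a bound could be set, at least 1.32-fold in WT and at least 1.34-fold in Per3-/- mice.

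Pax6, the paired-box gene whose loss leaves an embryo without eyes, was measured by a probe printed as 10 spots per array (A_52_P565559). It was 1.41, 1.59 and 1.88 in WT eyes and 1.48, 1.70 and 1.80 in Per3-/- eyes. In the hypothalamus it was -3.43, -3.29 and -3.15 in WT and -3.30, -3.21 and -2.01 in Per3-/- mice. The tissues did not overlap, and 1 Per3-/- hypothalamus stood above the other 15. The eye was 29.8-fold higher in WT (4.90 ± 0.13, adjusted p = 3.96e-24) and 26.2-fold higher in Per3-/- mice (4.71 ± 0.13, adjusted p = 1.01e-23). The other Pax6 probe (A_52_P469306) gave 14.9-fold (3.90 ± 0.20, adjusted p = 4.63e-17) and 14.4-fold (3.85 ± 0.20, adjusted p = 6.56e-17). That probe was above background in all eyes but in only 3 of 8 WT and 2 of 8 Per3-/- hypothalami. Its folds are therefore set by background and are not to be compared with those of the brighter probe. The 2 probes also read different stretches of the gene, and whether they detect the same splice forms was not determined.

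Lhx2, a LIM-homeobox gene of the optic vesicle that is also used in forebrain and glia, was bright in both tissues. It was 1.98, 2.15 and 2.42 in WT eyes and 1.40, 1.68 and 1.81 in WT hypothalami. The Per3-/- values were 2.02, 2.11 and 2.23 in the eye and 1.54, 1.71 and 1.83 in the hypothalamus. The eyes were all above the hypothalami by a small margin, 1.44-fold in WT (0.53 ± 0.07, adjusted p = 8.21e-08) and 1.33-fold in Per3-/- mice (0.41 ± 0.07, adjusted p = 5.72e-06). Centring arrays on their median moved the median of all probes from 0.15 to -0.27 in WT and from 0.23 to -0.19 in Per3-/- mice. The Lhx2 difference was then 0.10 (adjusted p = 0.277) in WT and -0.01 (adjusted p = 0.926) in Per3-/- mice. It passed under quantile normalization, at 0.66 in WT (adjusted p = 6.33e-10) and 0.54 in Per3-/- mice (adjusted p = 2.64e-08, limma). With normexp it passed at 0.45 (adjusted p = 1.67e-05) and 0.32 (adjusted p = 0.0012, limma). The median of all probes was then 0.11 in WT and 0.57 in Per3-/- mice. In Per3-/- mice the Lhx2 difference thus lay below that of the median probe.

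Six3, a homeobox gene that represses posterior signals in the anterior neural plate, had similar levels in the tissues. The brighter probe (A_52_P675229) was -2.68, -2.64 and -2.46 in WT eyes and -3.20, -3.10 and -2.80 in WT hypothalami. In Per3-/- mice it was -2.90, -2.69 and -2.26 in the eye and -3.53, -3.12 and -2.57 in the hypothalamus. The WT groups did not overlap, while in Per3-/- mice only 3 of 7 eyes were above every hypothalamus. The eye was 1.36-fold higher in WT (0.44 ± 0.11, adjusted p = 0.000731) and 1.38-fold higher in Per3-/- mice (0.47 ± 0.11, adjusted p = 0.000424). Neither held under quantile normalization, which gave 0.05 (adjusted p = 0.705) in WT and 0.07 (adjusted p = 0.569) in Per3-/- mice, or with arrays centred on their median, which gave 0.02 (adjusted p = 0.907) and 0.05 (adjusted p = 0.718). The dimmer probe was above background in 5 of 7 WT and 6 of 7 Per3-/- eyes, in no WT hypothalamus and in 2 of 8 Per3-/- hypothalami, and was at least 1.55-fold higher in the eye in WT mice. In Per3-/- mice it was higher in the eye too (adjusted p = 2.02e-05, limma), with a size set by the 6 hypothalami at background.

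The ventral factors went opposite ways. Vax2, which marks the ventral retina, was 1.79, 1.97 and 2.06 in WT eyes and 1.71, 1.96 and 2.28 in Per3-/- eyes. It was not above background in any of the 16 hypothalami, where its values have no order. The eye was at least 347-fold higher in WT (adjusted p = 3.35e-27) and at least 374-fold higher in Per3-/- mice (adjusted p = 1.58e-27).

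Vax1, which acts in the optic stalk and the ventral forebrain, was -3.68, -3.41 and -3.20 in WT hypothalami and -3.73, -3.40 and -2.64 in Per3-/- hypothalami. In the eye it was -7.23, -5.79 and -5.03 in WT and -6.49, -6.07 and -4.99 in Per3-/- mice. It was above background in 5 of 7 eyes of each genotype. The eyes in which Vax1 was not above background all lay on slide 2, where its mean was -6.58, against -5.13 on slide 4. Every hypothalamus was above every eye. The eye was lower by 5.57-fold in WT (-2.48 ± 0.26, adjusted p = 6.72e-10) and by 5.43-fold in Per3-/- mice (-2.44 ± 0.26, adjusted p = 9.29e-10). The size, though not the direction, depended on the background correction: normexp gave -1.09 (adjusted p = 0.000446) and -0.76 (adjusted p = 0.0101).

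Sox2, an SRY-related gene of neural stem cells and glia, was 0.29, 0.44 and 0.57 in WT hypothalami and 0.29, 0.51 and 0.61 in Per3-/- hypothalami. It was -0.45, -0.12 and 0.13 in WT eyes and -0.41, -0.15 and -0.05 in Per3-/- eyes. Every hypothalamus was above every eye. The eye was lower by 1.46-fold in WT (-0.55 ± 0.07, adjusted p = 6.6e-08) and by 1.59-fold in Per3-/- mice (-0.67 ± 0.07, adjusted p = 1.22e-09), and the direction and the call held under each scaling, with differences of -1.09 to -0.43.

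**Figure D2:**
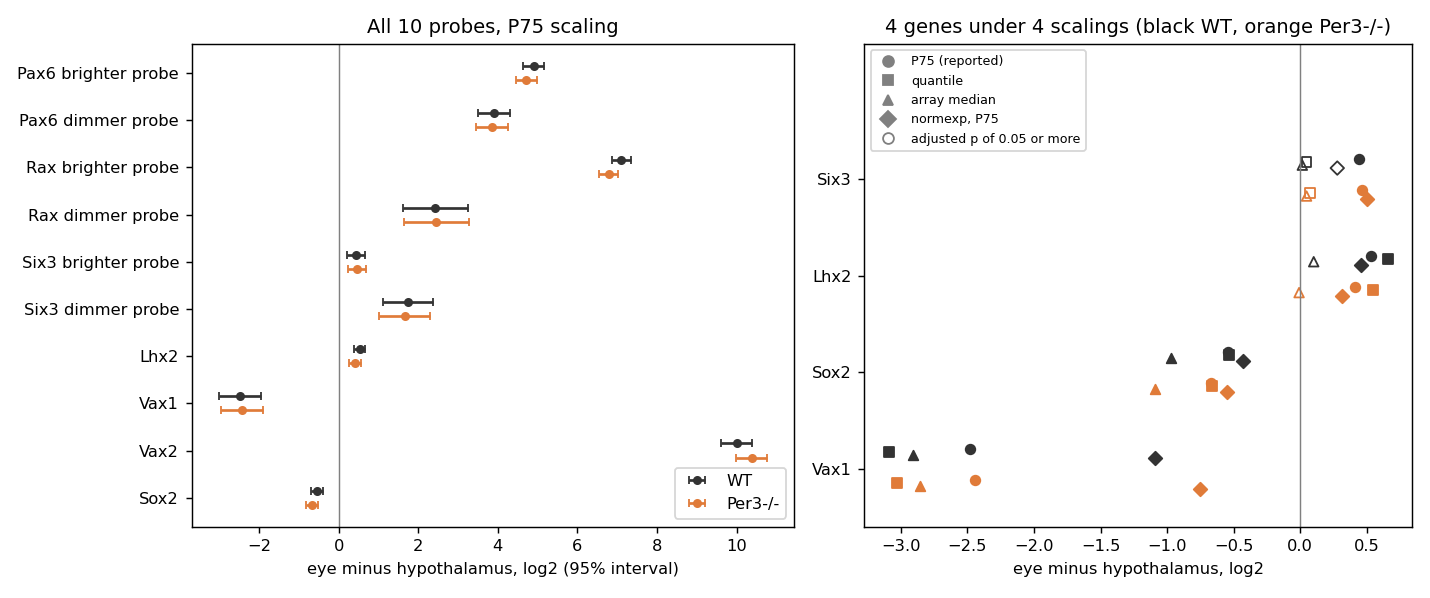
The left panel plots the eye minus hypothalamus difference of every member probe in each genotype (x axis, log2 units, with 95% intervals from limma), and the right panel that of 4 genes under 4 scalings, open where the adjusted p was 0.05 or more. The brighter Rax probe (7.10 in WT) and the Vax2 probe lie far to the right, and Vax1 (-2.48) and Sox2 (-0.55) lie to the left of 0 under each scaling.

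The second comparison asked whether the members depended on Per3 genotype in either tissue. No member probe passed in the eye, where 0.0194% of all probes did, and none in the hypothalamus, where 0.0413% did (limma, adjusted p under 0.05 over all probes). None of the 10 had an unadjusted p under 0.05 in either tissue, and the methods' t-test with Benjamini-Hochberg adjustment also called 0 in each. Among the probes of 6 members above background in every eye (all but Vax1), the 95% intervals of the Per3-/- minus WT difference ran from -0.31 to 0.25 at their widest. Among those of 6 members above background in every hypothalamus (all but Vax2), they ran from -0.30 to 0.55. These intervals bound the size of a genotype effect and do not show that the genotypes were alike.

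The lowest p in the eye was that of Rax. Its WT eyes were 2.96 to 3.17 and its Per3-/- eyes 2.70 to 3.08, with 3 of 7 Per3-/- eyes below every WT eye. The difference was -0.15 (95% interval -0.31 to 0.01, two-sided exact permutation p = 0.0571, adjusted p = 1.0 by limma), and within slides it was negative on 4 of 4. It was -0.31 on slides 1 and 2 but only -0.05 on slide 3 and -0.01 on slide 4, and slide 1 held 1 eye of each genotype. The 3 Per3-/- eyes below every WT eye were those of slides 1 and 2. In the hypothalamus Rax differed by 0.17 (-0.11 to 0.45), positive on 3 of 4 slides. The eye effect minus the hypothalamus effect was -0.32 (-0.65 to 0.00), with an unadjusted p of 0.0533 and an adjusted p of 1.0. No member probe passed that test, against 0.00486% of all probes. Leaving out 1 array at a time moved the Rax value of this contrast to between -0.39 and -0.24.

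The largest hypothalamic difference among probes above background on all arrays was that of Pax6, at 0.23 (-0.09 to 0.55, two-sided exact permutation p = 0.0549, adjusted p = 0.991 by limma). It rested in large part on Per3-/- mouse 7, in which the brighter probe was -2.01 against -3.43 to -3.01 in the other 15, and the dimmer probe -5.43 against -7.17 to -5.76. Without this mouse the difference was 0.08. The same array was also the highest for genes of the olfactory bulb or olfactory neurons, a list of 6 chosen after these values were seen. Cdhr1, a protocadherin of mitral cells, was 2.76 against -2.94 to -2.43 in the other 15. Tbx21, a T-box factor of mitral and tufted cells, was 0.18 against -5.28 to -4.69, and S100a5, of olfactory sensory neurons, was 3.54 against -8.38 to -6.48. Doc2g was 3.59 against -2.94 to -1.74, Eomes -0.36 against -7.83 to -3.62, and Omp -2.17 against -5.82 to -5.12. Their part in the Pax6 value was not tested.

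The Per3-/- hypothalamus with the high pituitary markers, that of mouse 1, was the highest of the 16 for Rax (-3.30), Six3 (-2.57) and Vax1 (-2.64). Without it the Per3-/- minus WT differences were 0.09 for Rax, -0.13 for Six3 and 0.00 for Vax1, against 0.17, -0.05 and 0.10 with it. The part of pituitary tissue in these values was not tested. Without this array, the differences between eye and hypothalamus in Per3-/- mice were 6.86 for Rax, 0.54 for Six3 and -2.34 for Vax1.

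**Figure D3:**
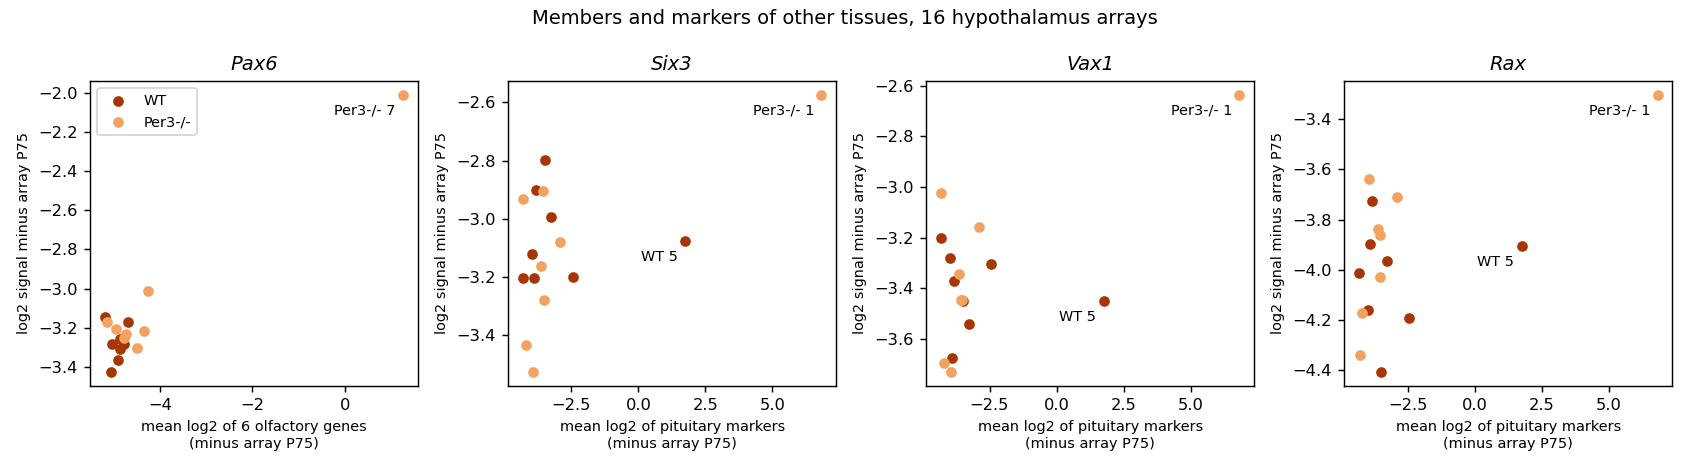
Levels of Pax6, Six3, Vax1 and Rax on each of the 16 hypothalamus arrays (y axes, log2 signal minus the array's 75th percentile, P75) against the mean level of the 6 olfactory genes (first panel) or of anterior pituitary markers (other panels); each point is 1 mouse. Pax6 stands alone on Per3-/- mouse 7 (-2.01), and Six3, Vax1 and Rax are highest on Per3-/- mouse 1, while WT mouse 5 lies among the others.

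**Figure D4:**
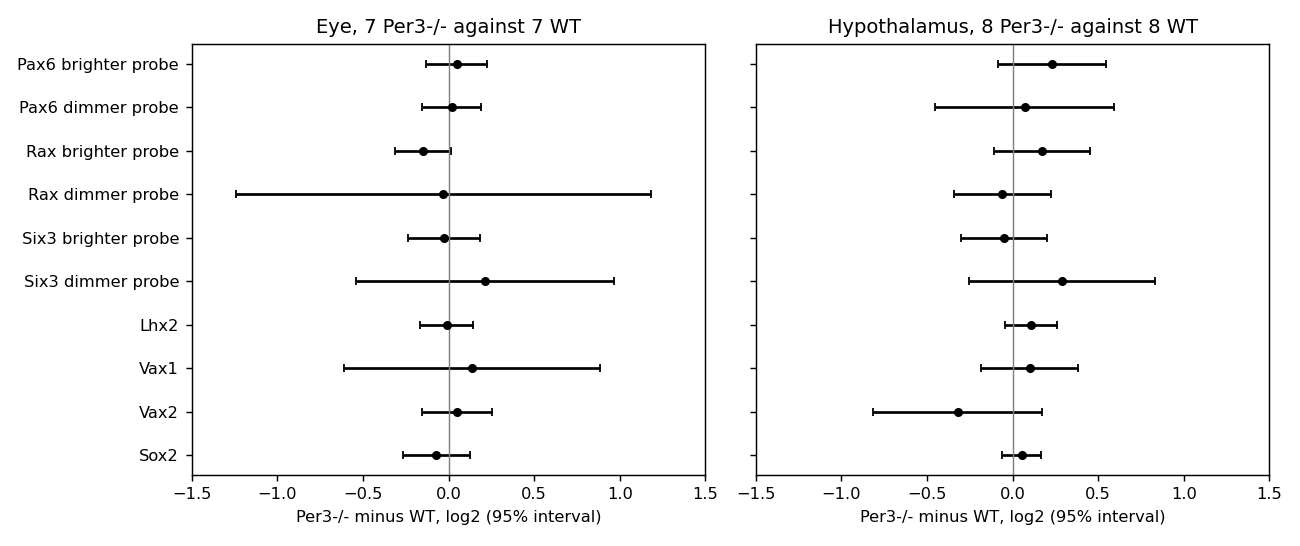
Per3-/- minus WT difference of every member probe in eye and hypothalamus (x axis, log2 units, with 95% intervals from limma). All intervals cover 0, and the widest belong to probes near background.

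How the members varied together was examined across mice of a tissue, as deviations from the genotype mean over 15 pairs of the 6 genes measured there. In the eye no pair passed after adjustment. Lhx2 and Sox2 had the highest correlation, with a Pearson r of 0.71 (permutation p = 0.00489, adjusted 0.0733) and a Spearman rho of 0.68 (p = 0.00931, adjusted 0.140) over 14 eyes. Without the 2 eyes farthest from the median of Lhx2, r was 0.55. With slide means removed as well, 2 pairs passed by Pearson r, Lhx2 and Sox2 (0.75) and Rax and Sox2 (0.74, against 0.43 without slides). Both had an adjusted permutation p of 0.0200. Their rho did not pass (0.61, adjusted 0.116, and 0.64, adjusted 0.110, permutation). These permutations moved values freely over all 14 eyes and made no allowance for the slide means removed, which can make p too small.

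In the hypothalamus 1 pair passed, Six3 and Vax1, with an r of 0.72 (permutation p = 0.00211, adjusted 0.0316) and a rho of 0.54 (p = 0.0316, adjusted 0.173) over 16 mice. This rested on few arrays. Without the 2 hypothalami farthest from the median of Six3, r was 0.36 (adjusted p = 0.444), and without the 2 with high pituitary markers it was 0.51 (adjusted p = 0.368, permutation). Taken as deviations from slide as well as genotype means, Six3 and Vax1 gave an r of 0.73 and Six3 and Lhx2 one of -0.71 (both adjusted p = 0.0162, permutation), where the latter was -0.50 (adjusted p = 0.349, permutation) without slides. Pax6 and Rax passed in that setting too, with an r of -0.64 (adjusted p = 0.0482, permutation), against -0.41 (adjusted p = 0.356) without slides. By Spearman rho 0 pairs passed in that setting, and its permutation p values have the same limit as in the eye.

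Over 24952 probes of other genes, the patterns most like each member across the 14 eyes were those of Ankrd10 for Pax6 (r = 0.90, over 24951 probes), Mfap1a for Rax (0.90), Ncapd2 for Six3 (0.90), Plekhg3 for Lhx2 (0.90), Tmem51 for Vax2 (0.92) and Gdf9 for Sox2 (0.92). Across the 16 hypothalami, over 24344 probes, they were Dcx, a microtubule protein of migrating neuroblasts, for Pax6 (r = 0.98), Wdfy2 for Rax (0.83), Bcl7c for Six3 (0.89), Spef1 for Lhx2 (0.82), Cpt1a for Vax1 (0.91) and Nupl1 for Sox2 (0.77). These are descriptions that share array and RNA sample. Each is the highest r of a search over all those probes and few arrays, with slide means left in. No p was computed, so that they do not show that the genes are expressed together. Dcx was 0.92 in Per3-/- mouse 7 against -1.38 to -1.03 in the other 15, the same array on which Pax6 stood apart.

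Genes related to the members were counted in WT mice by each gene's brightest probe, for which 43.6% of all genes were higher in the eye and 31.3% lower. Of 31 retinal and eye-field transcription factors, 22 were higher in the eye and 5 in the hypothalamus, with a median difference of 2.18. Nr2e3 and Crx, which specify photoreceptors, were at least 2067-fold and at least 676-fold higher in the eye, and Nrl, the rod factor, differed by 10.55 log2. Of 13 lens and anterior segment factors, where Pax6 also acts, 12 were higher in the eye and none lower, with a median of 1.94 and differences of 5.13 for Mab21l1 and 4.66 for Maf, a factor of lens fibre cells.

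Of 27 hypothalamic developmental factors, 16 were higher in the hypothalamus and 7 in the eye, with a median of -2.58 (-2.09 with genes at their bound). Dlx1, of ventral forebrain interneurons, and Foxb1, of the mammillary region, were higher in the hypothalamus, where both were above background on 8 of 8 arrays, against 1 and 3 of 7 eyes. Lhx8, of forebrain cholinergic neurons, was at least 41.3-fold higher in the hypothalamus. Of 15 measured SOX and neural progenitor genes, 8 were higher in the hypothalamus and 5 in the eye, with a median of -0.70. Fabp7, a fatty acid binding protein of radial glia and astrocytes, differed by -4.47, Sox8 by -2.84 and Msi1, an RNA-binding protein of progenitors, by 2.78.

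Of 27 paralogues and partners of the members, 14 were higher in the eye and 9 in the hypothalamus, with a median of 0.81. Six6, the close relative of Six3, differed by 3.55 and Meis1 by 3.56. Lhx5, a relative of Lhx2, was at least 98.2-fold higher in the hypothalamus, and Pax4 was at least 15.5-fold higher in the eye. Of 20 measured patterning signals, 15 were higher in the eye and 3 in the hypothalamus, with a median of 1.30. Aldh1a3, which makes retinoic acid, differed by 6.51, Cyp26a1, which degrades it, by 4.53, and Wnt3 by -5.94 (above background in 6 of 7 eyes).

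Of 3 measured transcripts that overlap or neighbour a member, Sox2ot, the transcript around Sox2, differed by -1.09 and Elp4, beside Pax6, by -0.56, both lower in the eye. Six3os1, above background in 4 of 8 hypothalami, differed by 0.69 with an adjusted p of 0.0614 (limma). In no list did a gene pass for genotype in either tissue.

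**Figure D5:**
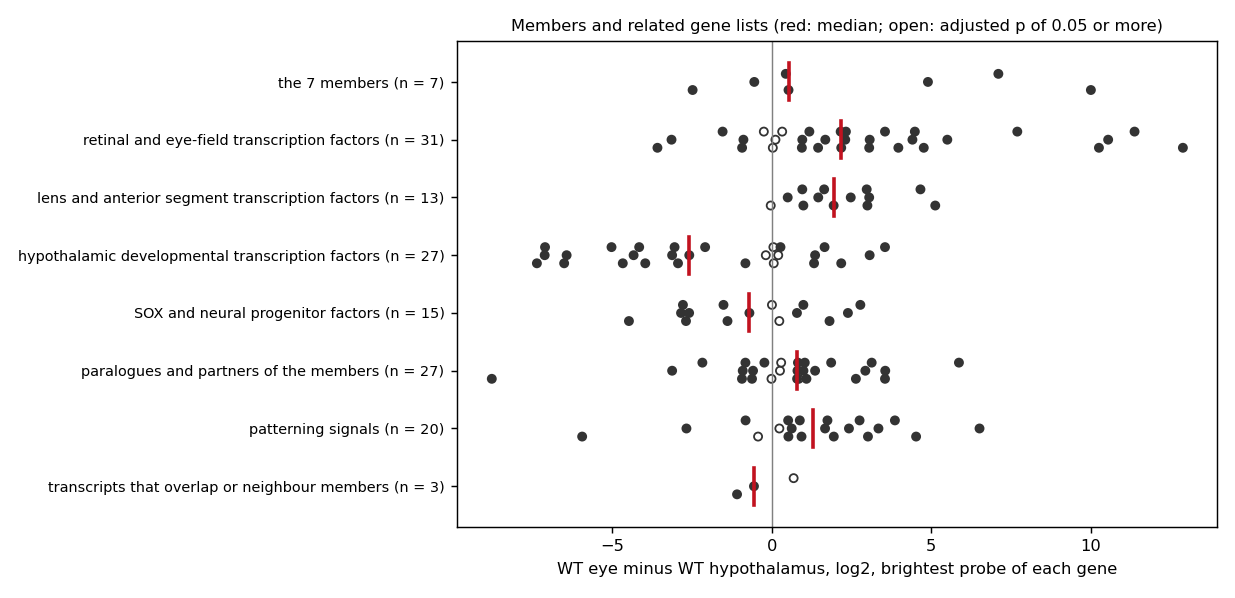
Eye minus hypothalamus difference in WT mice of each gene of the related lists (x axis, log2 units; each point is 1 gene's brightest probe at its measured value, open where the adjusted p was 0.05 or more, and the red line is the median), with the 7 members in the top row. Retinal and lens factors lie mostly to the right of 0 (medians 2.18 and 1.94) and hypothalamic factors mostly to the left (median -2.58). Some genes are in more than 1 list.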

How the data were processed

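Per the labels, RNA of whole eye and hypothalamus was labelled with Cy3 and hybridised to Agilent 60-mer arrays. Spots were read by the authors with Agilent Feature Extraction 10.7.1.1, and 1 Per3-/- eye was removed by them for a hybridization error. The series also holds only 7 WT eyes for 8 mice per genotype, and the methods give no reason for the missing WT eye. Per the file headers, the deposited intensity is background-subtracted and not normalized between arrays. A table of log2 values that the authors deposited, scaled to the array's upper quartile and with each probe's median within a tissue taken off, served as an alternative. The authors' GeneSpring analysis was not used.

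Here, processed intensities were taken to log2, the array's 75th percentile was subtracted, and spots marked as outliers, at most 91 on an array, were left out. Spots of 1 probe were averaged. Genotypes were compared within tissue, and tissues and their difference in genotype effect over all 30 arrays, with limma 3.58.1 in R 4.3.3 (lmFit, eBayes) and Benjamini-Hochberg adjustment over 41174 probes, after the code was tested on simulated data. Single values used two-sided exact permutation tests, and correlations 1e+05 permutations (Python 3.11.15, scipy 1.17.1). A probe above background on no array of a group was given a bound from the lowest signals marked above background.

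All member probes are reported; the probe with the highest mean over all arrays represents a gene in summaries. In each list the genes named were 2 to 4 of the 4 with the largest difference between tissues, and the 3 probes of highest correlation were sought for each member, of which the first is named. The members and lists were chosen with earlier results of these data known. A mouse's eye and hypothalamus were taken as sharing a number: with the mouse as a random block the consensus correlation was 0.059. Alternatives were the normalization (quantile, array median), normexp with an offset of 50, a filter on dim probes, slide and replicate blocks, the methods' t-test, the deposited values, all 4 groups in 1 fit, and leaving out each array. The number of arrays limits the precision.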

Additional observations from a re-analysis of the deposited data

Results flagged for a closer look

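In 40 series of a probe within a group, 2 had 1 array far from the rest of its group by Dixon's test, where chance gives about 1 in 20. The brighter Pax6 probe was -2.01 in the hypothalamus of Per3-/- mouse 7, and the next highest of the 8 was -3.01. The brighter Six3 probe was -2.46 in the eye of WT mouse 7, and the next highest of the 7 was -2.59. The Pax6 value is an average of 7 to 10 spots, whose SD within an array was at most 0.13.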

How the results depend on the processing

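Counts of member probes past the threshold were 0 for genotype in each tissue and for the difference between tissues under every alternative run, leaving out each array included (0 to 0). Those for tissue were 10 without any 1 array (10 to 10), and 9 under quantile normalization, 8 with array medians and 7 (WT) or 10 (Per3-/-) with normexp, and 8 of the 8 left by a filter on dim probes. By Pearson r, the pairs of members that varied together numbered 0 in the eye and 1 in the hypothalamus. With slide means removed they numbered 2 and 3, but 0 and 0 by Spearman rho. Under quantile normalization 1 pair passed in the eye, Six3 and Vax2 (r = 0.75, adjusted permutation p = 0.0301, rho = 0.79, adjusted 0.0193). That pair had an r of 0.55 in the main setting (permutation p = 0.0418, adjusted 0.314). In the hypothalamus 0 passed without the 2 arrays farthest from the median. Without Per3-/- mouse 7 and without the 2 with high pituitary markers 0 passed too (both settings chosen after seeing the data).

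Genotype differences that changed sign, none of them past the threshold, were under normexp Pax6 (-0.00025) and Six3 (0.14) in the eye and Vax1 (-0.0080) in the hypothalamus, Lhx2 in the eye with the replicate block (0.0083), and Vax1 in the hypothalamus without the high-pituitary arrays (-0.00247). The Lhx2 tissue difference in Per3-/- mice was -0.0091 with array medians. The cause was not tested. Leaving out 1 array gave ranges across 0 for genotype in the eye for Six3 (-0.091 to 0.016), Lhx2 (-0.039 to 0.035), Vax1 (-0.086 to 0.28) and Vax2 (-0.00032 to 0.10), in the hypothalamus for Six3 (-0.13 to 0.0091), and for the difference between tissues for Six3 (-0.041 to 0.10) and Vax1 (-0.19 to 0.18).

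Same-numbered WT and Per3-/- arrays correlated at 0.02 to 0.67 in the eye (6 pairs) and -0.21 to 0.39 in the hypothalamus (8 pairs), and 4 of 6 and 1 of 8 were closest to their own number. Same-numbered arrays of a tissue shared a slide. As not every pair was over 0.1 (5 of 6 and 4 of 8 were), the numbers were not taken to pair the mice, although in the eye the median was 0.53. With the replicate block, calls over all probes went from 8 to 1 in the eye and from 17 to 5 in the hypothalamus, and calls of members stayed at 0. Of all probes called between tissues, 55.5% (WT) and 56.9% (Per3-/-) were higher in the eye, against 39.6% and 41.3% with array medians, 46.3% and 46.8% under quantile normalization and 53.5% and 68.9% with normexp. Levels near background (Vax1 in the eye, Vax2 in the hypothalamus, the dimmer probes) limit what could be measured.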

Other observations

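Arrays were also set apart by how many probes were more than doubled relative to every other array of the tissue. Per3-/- hypothalami 1 and 7 had 358 and 309 such probes and Per3-/- eye 2 had 274, against group medians of 52 to 91. No member probe stood apart from its group by Dixon's test in Per3-/- eye 2.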
